A study of Rattus norvegicus with 8 samples.

Results

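The integrin and laminin genes of the rat male germ line were followed through undifferentiated spermatogonia (USg), differentiating spermatogonia (DSg) and spermatocyte-enriched cells (Spc), each with 2 RNA sequencing libraries. The genes were taken by symbol from the table of read counts: integrin alpha and beta chains, integrin beta-like 1 (Itgbl1), laminin alpha, beta and gamma chains, nidogen and dystroglycan (Dag1). Of 16764 symbols, 31 matched: 12 integrin alpha chains, 8 integrin beta chains, 8 laminin chains, Itgbl1, Nid2 and Dag1. Other members of these families were not analysed here. A filter on low counts was passed by 30 of the 31, and by 12210 genes in all. Itgb6, a chain of an integrin that binds latent TGF-beta, did not pass it, with counts of 5 and 4 in USg, 2 and 21 in DSg, and 6 and 4 in Spc.

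USg and DSg came from a spermatogonial line derived from Brown Norway rats. USg were kept in SG medium, with 0 h in SD medium, and by the extraction protocol their RNA was taken on day 0, before any plating on laminin. DSg had spent 120 h in SD medium, which supplies neuregulin-1 and all-trans-retinoic acid, and their RNA was taken 7 days after plating on laminin. Spc were a primary culture of Brown Norway spermatogenic cells that did not bind laminin, left once cells that attached to plastic, collagen-I or laminin had been taken away, and held for 2.5 days in DMEM and Ham's F12 with 10% FBS. Medium, time in culture and laminin contact differ together between DSg and USg. Source, selection and serum differ together between Spc and the line, so in neither case can they be told apart from stage. The titles of USg and DSg both carry T120, so it is not settled whether the cultures were matched for time. The labels speak of replicate cultures for the line and do not say whether the Spc libraries came from separate animals, so p-values measure only the spread between these libraries.

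Integrins are heterodimers of an alpha and a beta chain that hold cells to the extracellular matrix and signal inward through talin, kindlin and focal adhesion kinase. Laminins are trimers of an alpha, a beta and a gamma chain and form the sheet of the basement membrane, which nidogen links to collagen IV. Spermatogonia rest on the basement membrane of the seminiferous tubule, and Itga6 with Itgb1, a laminin receptor, is used in rodents to enrich for spermatogonial stem cells. Spermatocytes have left that membrane and lie further in, between Sertoli cells.

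Total counts per library ran between 2657291 and 5697165. The share of ribosomal RNA genes was 7.81% in USg 1 and 12.4% in DSg 1, against 0.00377% to 0.734% in the other 4 libraries. In DSg 2, 96.7% of 1044 olfactory receptor genes had a count, against 23.4% to 64.1% in the other 5 libraries. Each stage was checked against its markers. Sycp3 of the synaptonemal complex averaged 270 ± 40.3 CPM in USg, 171 ± 49 CPM in DSg and 3331 ± 251 CPM in Spc (SD, n = 2 each), where CPM are read counts scaled to the size of the library with TMM factors. All 7 spermatocyte genes rose in Spc against USg and 6 rose against DSg. Of 7 genes of undifferentiated spermatogonia, 4 fell in DSg against USg and 0 rose, while 6 fell and 1 rose in Spc against USg, and 4 fell and 1 rose against DSg. Of 4 genes of differentiating spermatogonia, Kit alone rose in DSg against USg, and 4 fell in Spc against DSg and 2 against USg. Of all 12210 genes, 0.565% rose and 1.92% fell in DSg against USg, 17.9% rose and 16.6% fell in Spc against USg, and 14.8% rose and 11.7% fell in Spc against DSg.

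The results turn on a few genes, and for 4 of them the 250 bases before the gene start are shown, from RefSeq on build GRCr8, each 5′ to 3′ on the strand of the gene. Itga8 and Lama1 are the genes that fell in DSg, and Itga5 and Itgb8 are those that rose in Spc against both other groups. Capitals mark a GC box (GGGCGG or its reverse complement CCGCCC), the motif bound by Sp1-type factors. The windows are chr17:80410634-80410883 (minus strand) for Itga8, chr9:115139298-115139547 (plus strand) for Lama1, chr7:136381306-136381555 (minus strand) for Itga5 and chr6:146351246-146351495 (minus strand) for Itgb8.
Itga8: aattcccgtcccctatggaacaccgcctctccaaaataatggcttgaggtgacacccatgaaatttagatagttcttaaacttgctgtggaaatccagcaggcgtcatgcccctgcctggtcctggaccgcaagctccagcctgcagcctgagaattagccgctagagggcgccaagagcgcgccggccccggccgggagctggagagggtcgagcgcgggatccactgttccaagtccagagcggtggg
Lama1: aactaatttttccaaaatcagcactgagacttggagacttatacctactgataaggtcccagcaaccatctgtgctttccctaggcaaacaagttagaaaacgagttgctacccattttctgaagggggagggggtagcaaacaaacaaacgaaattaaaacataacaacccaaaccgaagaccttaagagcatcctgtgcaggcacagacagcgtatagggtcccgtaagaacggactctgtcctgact
Itga5: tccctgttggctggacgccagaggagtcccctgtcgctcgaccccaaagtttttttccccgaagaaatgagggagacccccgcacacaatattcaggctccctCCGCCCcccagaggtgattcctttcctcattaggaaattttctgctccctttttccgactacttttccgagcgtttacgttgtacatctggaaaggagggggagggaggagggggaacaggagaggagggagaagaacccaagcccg
Itgb8: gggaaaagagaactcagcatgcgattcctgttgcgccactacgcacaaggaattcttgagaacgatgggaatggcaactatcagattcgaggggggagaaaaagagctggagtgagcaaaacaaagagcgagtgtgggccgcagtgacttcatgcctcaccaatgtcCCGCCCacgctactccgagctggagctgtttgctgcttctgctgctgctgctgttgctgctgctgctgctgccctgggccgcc
Of the 31 genes, 20 had a promoter in the RefSeq table, and 9 of these 20 (45.0%) held a GC box, against 30.5% of 33469 rat promoters of the same length. The retinoid receptor half-site AGGTCA, or its reverse complement TGACCT, stood in 1 of the 20, Lama4, against 14.1% of all promoters. The forkhead core TGTTTAC, or GTAAACA, stood in 0 of the 20, against 3.2% of all. Both strands were searched, these motifs do not overlap, and a match describes letters in the window and not a bound site.

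Of the laminin-binding integrin chains and dystroglycan, only Itga6 was called in Spc against USg and only Dag1 in Spc against DSg. None was called in DSg against USg, and differences between these genes were not tested. The Itga6 chain was highest in USg and fell in Spc, while Itgb1, its main partner, showed no detected difference between any pair of groups. Dystroglycan, a laminin receptor outside the integrin family, was lower in DSg than in Spc, a call that several alternatives lost. Its differences between USg and the other groups were not called, which does not show equal levels.

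Itga6 (gene 114517, chromosome 3) stood at 685 and 535 CPM in USg, 323 and 260 CPM in DSg, and 235 and 246 CPM in Spc. Both USg libraries lay above the other 4, and both Spc libraries lay below the DSg libraries. Spc averaged 240 ± 8.44 CPM and USg 610 ± 106 CPM (SD, n = 2 each), a log2 fold change of -1.34 ± 0.30 (SE; edgeR adjusted p = 0.00863). This call was lost without Spc 1 (adjusted p = 0.158) and without Spc 2 (0.141). DSg averaged 291 ± 45 CPM, and the log2 fold change of DSg over USg was -1.07 ± 0.30 with an adjusted p of 0.102, above the threshold of 0.05, where DESeq2 gave 0.0444. For Spc over DSg it was -0.28, with a 95% interval of -0.94 to 0.39. Between Spc, the cells that did not bind laminin, and DSg, the cells grown on it, a difference in Itga6 was therefore not detected, and the interval does not show that the levels were equal. In bulk RNA, fewer cells of a type and less RNA per cell cannot be told apart.

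Itgb1, the beta chain shared by most matrix integrins, stood at 509 and 215 CPM in USg, 549 and 306 CPM in DSg, and 498 and 553 CPM in Spc. The replicates of USg and of DSg spread by more than the groups differed, and both Spc libraries fell among the higher values. The log2 fold change was 0.24 for DSg over USg (95% interval -0.77 to 1.25), 0.54 for Spc over USg (-0.47 to 1.55) and 0.30 for Spc over DSg (-0.71 to 1.31). These intervals leave room for a change of over 2-fold, so equal levels are not shown. Itgb4, the partner of Itga6 in hemidesmosomes, had 28.2 and 54 CPM in USg, 19.8 and 45.2 CPM in DSg, and 24.4 and 18.1 CPM in Spc. Its Spc libraries lay below both USg libraries, but the difference missed the threshold (log2 -0.96 ± 0.49, adjusted p = 0.156). Itga7, another laminin-binding alpha chain, had 6.95 and 13.9 CPM in USg, 1.62 and 11.8 CPM in DSg, and 8.08 and 5.23 CPM in Spc, and its groups overlapped in every pair.

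Dag1 (gene 114489, chromosome 8) stood at 837 and 1427 CPM in USg, 362 and 481 CPM in DSg, and 833 and 1142 CPM in Spc. The DSg libraries lay below the other 4, and the ranges of Spc and USg overlapped. Dag1 was higher in Spc, at 988 ± 218 CPM, than in DSg, at 422 ± 84.5 CPM (log2 1.23 ± 0.37, adjusted p = 0.0381). The call was lost under upper quartile scaling (adjusted p = 0.0737), total count scaling (0.0947) and without any of the libraries compared (0.0599 to 0.263). DSg against USg, at 1132 ± 417 CPM, gave a log2 fold change of -1.42 ± 0.37 with an adjusted p of 0.0854 (DESeq2 0.00888), and Spc against USg gave -0.20 (95% interval -1.02 to 0.63).

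**Figure D1:**
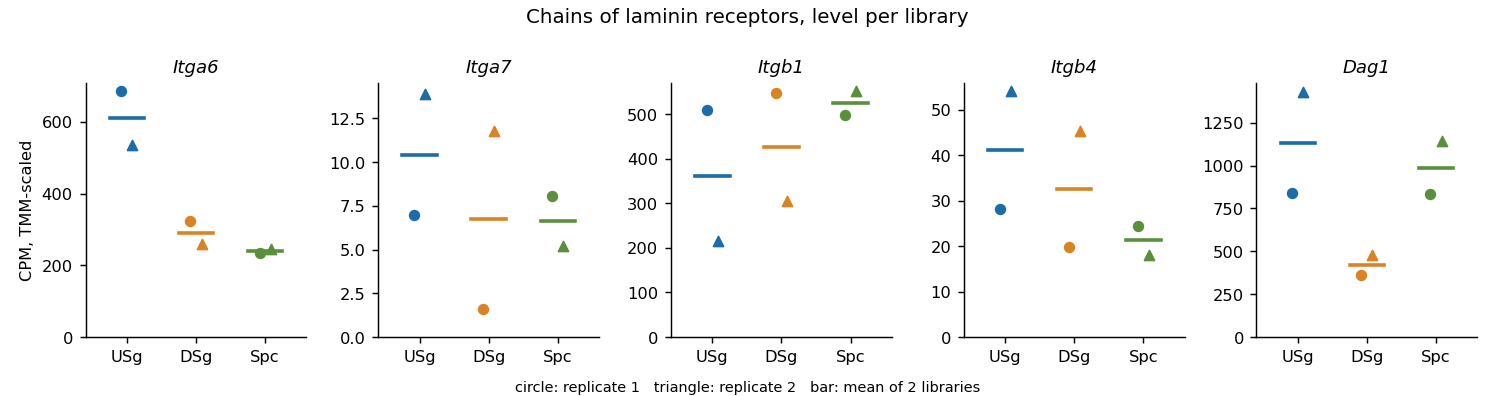
Levels of the laminin receptor genes Itga6, Itgb1, Itgb4, Itga7 and Dag1 in the 6 libraries, in CPM on a linear axis from 0 with its own scale in each panel, by stage (USg, DSg, Spc). Circles are replicate 1, triangles replicate 2 and bars the mean. Itga6 is highest in both USg libraries, while Itgb1 spreads within USg from 215 to 509 CPM.

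Over all 30 integrin and laminin genes tested, 2 fell in DSg against USg (6.67%), where 1.92% of all genes fell, and 0 rose, where 0.565% of all genes rose. At an unadjusted p under 0.05, 3 were higher (10%, against 8.26% of all genes) and 9 lower (30%, against 10.9%) by edgeR, and DESeq2 and limma-voom also called 0 higher, where they called 1.96% and 0.549% of all genes higher. DESeq2 called 7 lower (Itga6, Itga8, Itgb5, Dag1, Lama1, Lamc1 and Nid2), or 23.3%, against 4.44% of all genes, and limma-voom 4 (Itgb5, Lama1, Lamc1 and Nid2), or 13.3%, against 1.8%, while without DSg 1 or without DSg 2 edgeR called 0 of these genes and 0 of all genes. In Spc against USg, 9 fell (30%), where 16.6% of all genes fell, and 5 rose (16.7%), where 17.9% of all genes rose. In Spc against DSg, 4 fell (13.3%, against 11.7% of all genes) and 5 rose (16.7%, against 14.8%). Under upper quartile scaling that split became 5 lower and 3 higher, and under total count scaling 4 lower and 2 higher. Except for the genes lower in Spc than in USg, and for DSg against USg with its 2 calls, these shares stood near those of all genes. The median log2 fold change over the 30 genes was -0.18, 0.10 and -0.17 for DSg over USg, Spc over USg and Spc over DSg, against 0.01, -0.04 and -0.03 over all genes. Of the 30, 17 were called in at least 1 comparison, and Lama1 was called in all 3. The 3 comparisons share libraries in pairs and are not independent of each other.

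**Figure D2:**
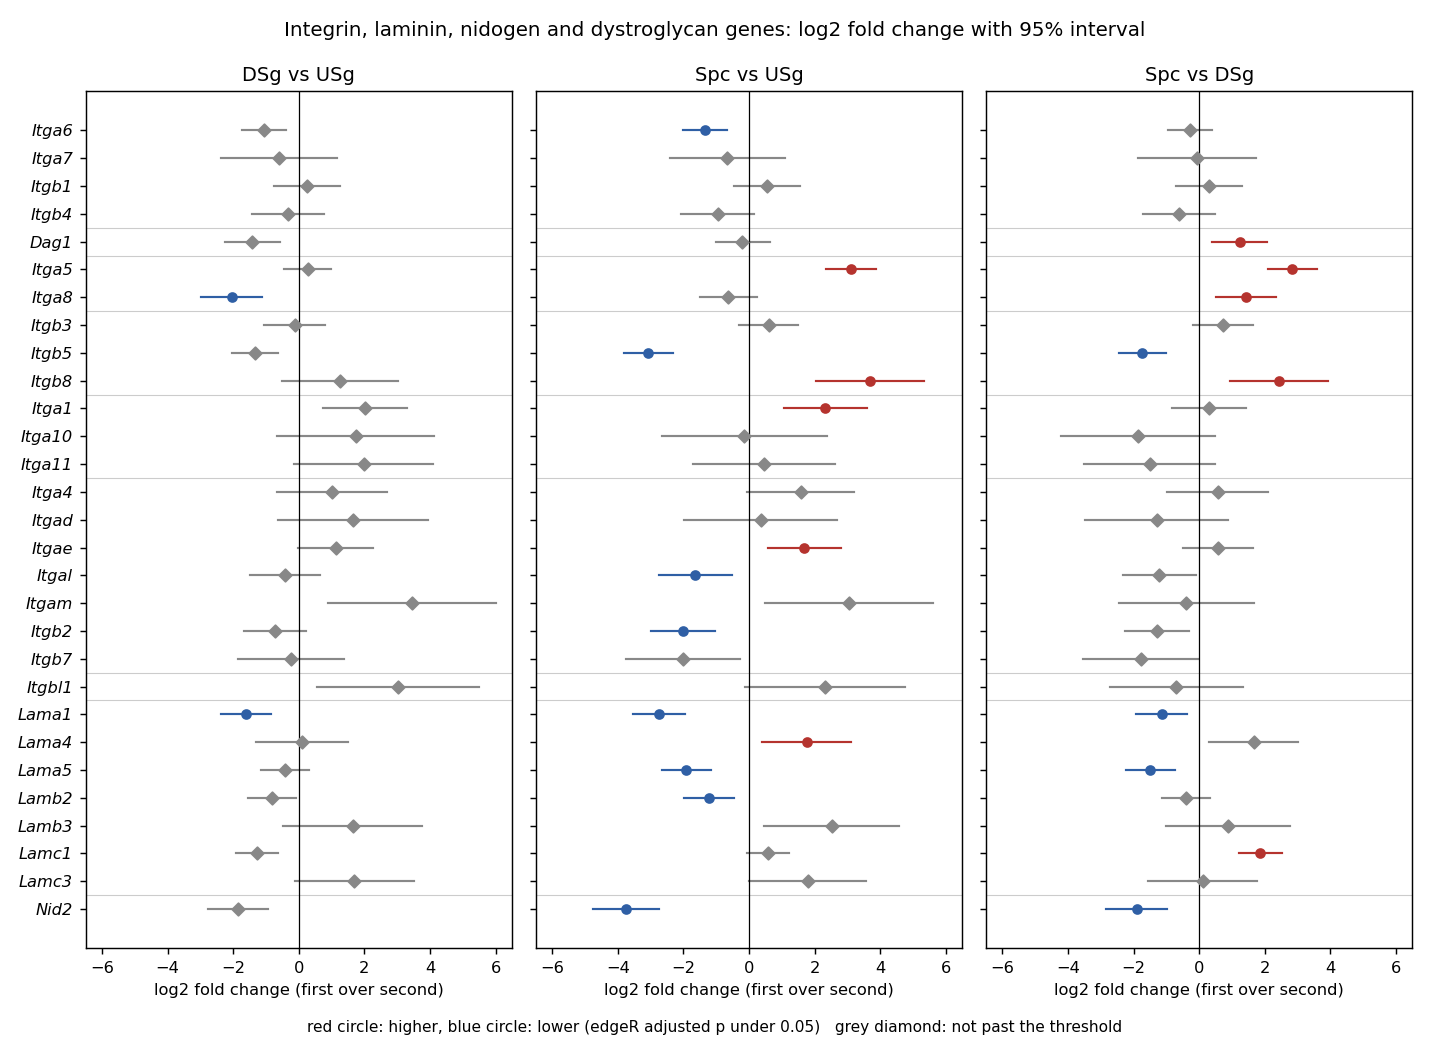
Log2 fold changes of tested genes in the 3 comparisons (DSg over USg, Spc over USg, Spc over DSg) with 95% intervals. Red and blue circles are genes higher and lower at an edgeR adjusted p under 0.05, and grey diamonds did not pass. Itga5 and Itgb8 lie to the right and Nid2, Itgb5, Lama1 and Lama5 to the left in both comparisons of Spc, and 2 genes, Itga8 and Lama1, are blue for DSg over USg.

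Laminin chains and nidogen were among the genes that were lower in Spc. In Spc, Lama1, Lama5, Lamb2 and Nid2 fell against USg, while Lama4 rose, and Lamc1 rose against DSg. In DSg, Lama1 fell against USg.

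Nid2 (gene 302248, chromosome 15), which encodes nidogen-2, had 1435 and 1320 CPM in USg, 531 and 231 CPM in DSg, and 105 and 98.4 CPM in Spc. The 3 groups did not overlap, and the values stepped down from USg through DSg to Spc. Spc fell 13.5-fold against USg (log2 -3.76 ± 0.44, adjusted p = 0.000469) and 3.73-fold against DSg (log2 -1.90 ± 0.41, adjusted p = 0.0102). The second call was lost without DSg 1, the higher DSg library, with a log2 fold change of -1.0 and an adjusted p of 0.0716. DSg stood at 381 ± 212 CPM and USg at 1378 ± 81.4 CPM, a log2 fold change of -1.86 ± 0.41 that narrowly missed the threshold (adjusted p = 0.0528). Its adjusted p was 0.000712 with DESeq2, 0.0328 with limma-voom and 0.122 in a fit of the 4 libraries compared. The log2 fold change was -2.77 without DSg 1 (adjusted p = 0.094) and -1.37 without DSg 2 (adjusted p = 0.215).

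Lama1 (gene 316758, chromosome 9), an alpha chain of embryonic basement membranes, had 94.5 and 82.8 CPM in USg, 24.2 and 33.9 CPM in DSg, and 13.4 and 12.8 CPM in Spc. Again the groups did not overlap, and the values were highest in USg and lowest in Spc. DSg, at 29.1 ± 6.85 CPM, fell against USg, at 88.7 ± 8.3 CPM (log2 -1.60 ± 0.34, adjusted p = 0.0469). That call lay near the threshold and was lost under 8 of the 17 alternatives, among them a fit of the 4 libraries compared (adjusted p = 0.15) and the fits without DSg 1 (0.12) or DSg 2 (0.191). Spc fell 6.74-fold against USg (log2 -2.75 ± 0.35, adjusted p = 0.000714), a call kept under all 17 alternatives, and 2.22-fold against DSg (log2 -1.15 ± 0.34, adjusted p = 0.037). The last was lost without Spc 1 (0.385), Spc 2 (0.39), DSg 1 (0.0669) or DSg 2 (0.147) and with no filter (0.136). The promoter of Lama1 printed above had the lowest GC content of the 4, at 44.8%, against 55.6% to 59.6% in the other 3.

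Lama5 (gene 140433, chromosome 3), the alpha chain found widely in mature basement membranes, had 195 and 302 CPM in USg, 174 and 197 CPM in DSg, and 71.1 and 61.2 CPM in Spc. USg and DSg overlapped, and both Spc libraries lay below them. Spc, at 66.2 ± 7.05 CPM, fell against USg, at 248 ± 75.6 CPM (log2 -1.91 ± 0.33, adjusted p = 0.0027), and against DSg, at 185 ± 16.3 CPM (log2 -1.49 ± 0.33, adjusted p = 0.0111). The call against DSg was lost without any of the 4 libraries compared (0.0548 to 0.204).

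Lamc1 (gene 117036, chromosome 13), the gamma chain of most laminins, went another way, with 370 and 317 CPM in USg, 145 and 139 CPM in DSg, and 477 and 551 CPM in Spc. Its groups did not overlap in any pair, and DSg was the lowest. Lamc1 rose 3.61-fold in Spc, at 514 ± 52.1 CPM, against DSg, at 142 ± 4.6 CPM (log2 1.85 ± 0.29, adjusted p = 0.00248), a call kept under all 17 alternatives. DSg against USg missed the threshold (log2 -1.27 ± 0.28, adjusted p = 0.0557), as did Spc against USg (log2 0.58 ± 0.28, adjusted p = 0.137).

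Lama4 (gene 309816, chromosome 20), an alpha chain of vessel and muscle basement membranes, had 16.2 and 5.34 CPM in USg, 6.06 and 15.6 CPM in DSg, and 31.1 and 39.2 CPM in Spc. Both Spc libraries lay above the other 4, and USg and DSg overlapped. Spc rose 3.39-fold against USg (log2 1.76 ± 0.60, adjusted p = 0.0499), a call at the threshold that was lost under 8 alternatives. Without USg 2, the lower USg library, the log2 fold change was 1.1 with an adjusted p of 0.112, a fold smaller by more than 1.5 times, and without USg 1 it was 2.67 with an adjusted p of 0.00298. Against DSg the log2 fold change was 1.67 ± 0.60 (adjusted p = 0.0697). Myoid marker genes, at 473 to 500 CPM in Spc and 52.9 to 83.9 CPM in USg, were high in the same libraries, and their part in the Lama4 and Lamc1 values was not tested.

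Lamb2, a beta chain, had 69.5 and 75.1 CPM in USg, 42.8 and 39.6 CPM in DSg, and 36.5 and 25.7 CPM in Spc, and fell in Spc against USg (log2 -1.22 ± 0.33, adjusted p = 0.0209). That call was lost without Spc 1 (0.136) or Spc 2 (0.375). Lamb3, another beta chain, had 0.386 and 1.96 CPM in USg, 1.62 and 6.46 CPM in DSg, and 6.11 and 9.36 CPM in Spc. Lamc3, a gamma chain, had 1.93 and 3.03 CPM in USg, 2.42 and 13.7 CPM in DSg, and 8.67 and 9.14 CPM in Spc. Neither passed the threshold in any comparison, with edgeR adjusted p of 0.059 for Lamb3 and 0.111 for Lamc3 in Spc against USg as their lowest. In that comparison Lamb3 passed under 8 of the 17 alternatives and Lamc3 under 5. Without USg 2 the log2 fold change of Lamb3 was 4.22.

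**Figure D3:**
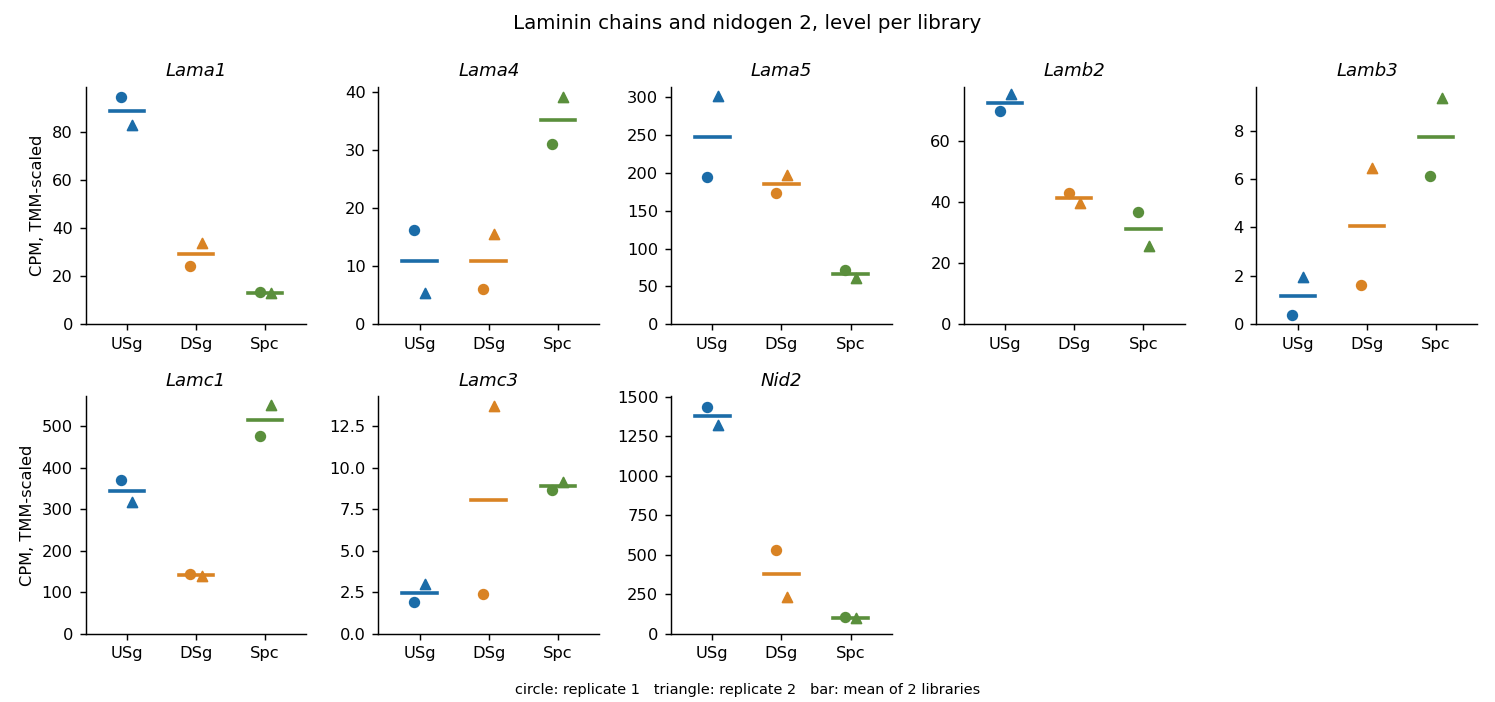
Levels of 7 laminin chain genes and Nid2 in the 6 libraries, in CPM on a linear axis from 0 with its own scale in each panel, by stage (USg, DSg, Spc). Circles are replicate 1, triangles replicate 2 and bars the mean. Nid2 and Lama1 step down from USg through DSg to Spc, and Lamc1 is lowest in DSg, at 145 and 139 CPM.

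Among the integrin chains with other ligands, Itga5 and Itgb8 rose and Itgb5 fell in Spc against both spermatogonial groups, and Itga8 was low in DSg. Itga5 is the alpha chain of the classical fibronectin receptor, Itga8 a receptor chain for nephronectin, Itgb5 a chain of a vitronectin receptor, and Itgb8 a chain of an integrin that binds latent TGF-beta.

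Itga5 (gene 315346, chromosome 7) stood at 40.5 and 28.5 CPM in USg, 42 and 40.9 CPM in DSg, and 313 and 278 CPM in Spc. The Spc libraries lay far above the other 4, which were close to each other. Spc rose 8.61-fold against USg (295 ± 24.6 and 34.5 ± 8.5 CPM; log2 3.11 ± 0.33, adjusted p = 0.000335) and 7.12-fold against DSg, at 41.5 ± 0.771 CPM (log2 2.83 ± 0.33, adjusted p = 0.000678). Both calls were kept under all 17 alternatives. Of 4 tested fibroblast marker genes, Dcn and Pdgfra also rose in Spc against USg, Thy1 fell and Col1a1 was not called, and the list summed to 1096 to 1126 CPM in Spc and 202 to 418 CPM in USg. The part of these markers in the Itga5 values was not tested.

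Itgb8 (gene 362800, chromosome 6) stood at 2.32 and 0.712 CPM in USg, 2.02 and 4.31 CPM in DSg, and 21.3 and 14.4 CPM in Spc. Both Spc libraries lay above the others, while USg rested on 6 and 4 counts. Spc rose against USg (log2 3.70 ± 0.73, adjusted p = 0.00495), and against DSg (log2 2.44 ± 0.66, adjusted p = 0.0254). The call against USg was kept under all 17 alternatives, but its log2 fold change was 4.55 without USg 1 and 2.94 without USg 2. The call against DSg was lost under total count scaling (0.0618) and without DSg 1 (0.0753), DSg 2 (log2 3.12, adjusted p = 0.0517) or Spc 1 (0.201). The promoters of Itga5 and Itgb8 shown above each held 1 GC box.

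Itgb5 (gene 257645, chromosome 11) stood at 184 and 154 CPM in USg, 73.9 and 59.8 CPM in DSg, and 19.3 and 20.7 CPM in Spc. The groups did not overlap and stepped down from USg through DSg to Spc. Spc fell 8.44-fold against USg (20 ± 0.968 and 169 ± 21.8 CPM; log2 -3.08 ± 0.33, adjusted p = 0.000328) and 3.34-fold against DSg (log2 -1.74 ± 0.32, adjusted p = 0.00506). The second call was lost without Spc 1 (0.125) or Spc 2 (0.0872), and DSg against USg missed the threshold (log2 -1.34 ± 0.31, adjusted p = 0.0596). Itgb3, another RGD-binding beta chain, was called in no comparison, with 12 and 17.4 CPM in USg, 13.3 and 13.7 CPM in DSg, and 26.4 and 18.5 CPM in Spc.

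Itga8 (gene 364786, chromosome 17) stood at 75.6 and 43.3 CPM in USg, 11.3 and 17 CPM in DSg, and 37.6 and 38.5 CPM in Spc. Its DSg libraries were the lowest and its groups did not overlap. DSg fell against USg, at 14.1 ± 4 and 59.4 ± 22.9 CPM (log2 -2.05 ± 0.41, adjusted p = 0.042), and Spc rose against DSg (log2 1.42 ± 0.40, adjusted p = 0.0317). The fall in DSg was lost under upper quartile (0.0628) and total count scaling (0.0809), with limma-voom (0.0529), in a fit of the 4 libraries compared (0.116) and without DSg 1 (0.121) or DSg 2 (0.198). The rise in Spc over DSg was lost under the same 2 scalings (0.0691 and 0.0795) and without any library compared (0.0672 to 0.12).

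The collagen-binding and leukocyte integrin chains lay at 32.9 CPM or less in every library. Itga1, a collagen receptor chain, had 3.09 and 1.78 CPM in USg, 10.9 and 8.35 CPM in DSg, and 12.4 and 11.3 CPM in Spc. It rose in Spc against USg (log2 2.33 ± 0.56, adjusted p = 0.0122), lost without Spc 1 (0.0797) or Spc 2 (0.052), and the log2 fold change of DSg over USg was 2.03 ± 0.57 (adjusted p = 0.104). Itga10 and Itga11, also collagen receptor chains, lay between 0.712 and 3.86 CPM in 5 libraries and at 12.7 and 10.2 CPM in DSg 2.

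Itgae, which with Itgb7 binds E-cadherin, had 10.8 and 8.9 CPM in USg, 11.3 and 30.7 CPM in DSg, and 30.5 and 32.9 CPM in Spc. It rose in Spc against USg (log2 1.69 ± 0.49, adjusted p = 0.0277), a call lost under total count scaling (0.0577) and without Spc 1 (0.0521) or Spc 2 (0.0711). Its partner chain Itgb7 lay lower in Spc, at 1.18 and 1.96 CPM, than in USg, at 4.24 and 8.37 CPM, without passing the threshold (log2 -2.02 ± 0.77, adjusted p = 0.0706).

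Itgb2, the shared beta chain of leukocytes, had 24.7 and 17.4 CPM in USg, 12.5 and 12.7 CPM in DSg, and 5.52 and 4.79 CPM in Spc. Itgal, its partner in the receptor for Icam1, had 12.7 and 13.4 CPM in USg, 8.89 and 10.5 CPM in DSg, and 3.35 and 5.01 CPM in Spc. Both were highest in USg and lowest in Spc, but neither was called in DSg against USg (edgeR adjusted p = 0.37 for Itgb2 and 0.661 for Itgal). Neither was called in Spc against DSg (0.0581 and 0.1). Both fell in Spc against USg, Itgb2 by 2.01 on the log2 scale (adjusted p = 0.00742) and Itgal by 1.64 (adjusted p = 0.03). Both calls were lost without Spc 1 (0.0505 and 0.306 for Itgb2 and Itgal) or Spc 2 (0.0828 and 0.137), and that of Itgal also under total count scaling (0.0513) and without USg 2 (0.0554). Itgam, a myeloid partner of Itgb2, had 0.386 and 0.712 CPM in USg, 1.21 and 11.8 CPM in DSg, and 6.11 and 4.14 CPM in Spc, and was called in no comparison. Itgam and Itgad are similar genes, so reads may be split between them.

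**Figure D4:**
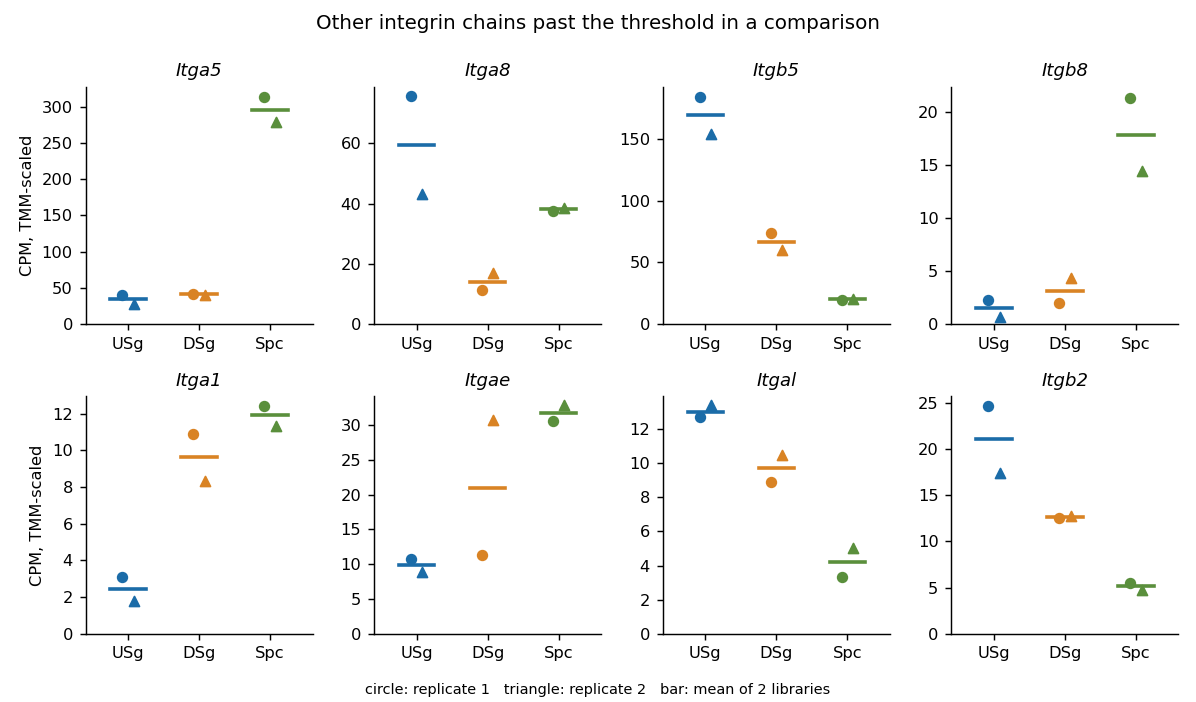
Levels of integrin chains with ligands other than laminin in the 6 libraries, in CPM on a linear axis from 0 with its own scale in each panel, by stage (USg, DSg, Spc). Circles are replicate 1, triangles replicate 2 and bars the mean. Itga5 and Itgb8 are highest in both Spc libraries, Itgb5 and Itgb2 are lowest there, and Itga8 is lowest in DSg.

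The remaining genes were Itga4, a chain that binds Vcam1, Itgad and Itgbl1, a secreted protein that forms no heterodimer. Itga4 had 3.47 and 2.14 CPM in USg, 2.42 and 8.35 CPM in DSg, and 8.28 and 8.06 CPM in Spc. Itgad had 2.7 and 1.25 CPM in USg, 1.21 and 10.2 CPM in DSg, and 2.17 and 2.61 CPM in Spc. Itgbl1 had 0 and 4 counts in USg, 9 and 15 in DSg, and 15 and 8 in Spc. None of these 3 genes passed the threshold in any comparison.

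The DSg replicates differed most at low levels. DSg 2 was over 2-fold above DSg 1 for 13 of the 30 genes and over 2-fold below it for 1, Nid2. Such counts were not made over all genes, so it is not known whether the gap is particular to these genes. Of 13 genes with a mean under 10 CPM, 10 were over 2-fold higher in DSg 2, against 3 of 17 genes at 10 CPM or more. Spc 2 was over 2-fold above or below Spc 1 for 0 genes, and USg 2 was over 2-fold above USg 1 for 2 genes and below it for 6. The olfactory receptor counts of DSg 2 given above moved with these low-level values, and their part in them was not tested.

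**Figure D5:**
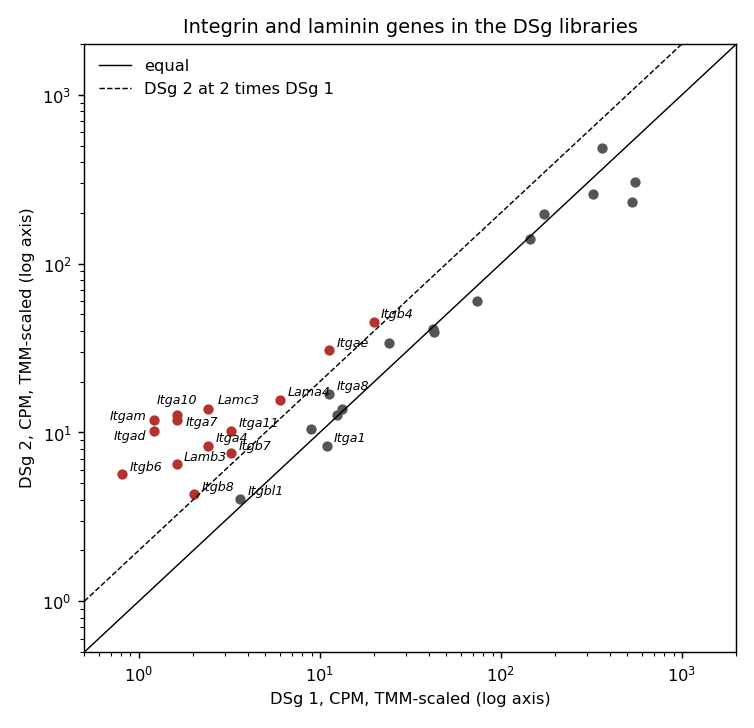
Levels of the genes in DSg 2 against DSg 1, in CPM on log axes, with the line of equality and a dashed line at 2 times DSg 1. Red points lie above the dashed line, and 13 of these are among the 30 tested genes, the other being Itgb6; most are at low levels.

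Genes of the wider adhesion machinery were read beside the receptors. Of 28 tested genes of adhesion adaptors and signalling, 1 fell and 0 rose in DSg against USg, 9 rose and 2 fell in Spc against USg, and 10 rose and 0 fell in Spc against DSg. Of all genes, 0.565% rose and 1.92% fell in DSg against USg. In Spc, 17.9% rose and 16.6% fell against USg, and 14.8% rose and 11.7% fell against DSg. The counts of this and the following lists are read against these shares. The gene that fell in DSg was Vasp, which promotes actin filament growth, at 30.7 and 29.1 CPM in DSg and 98 and 186 CPM in USg. Vinculin (Vcl), which couples talin to actin, rose in Spc to 477 ± 9.27 CPM, against 92 ± 42.9 CPM in USg (log2 2.38 ± 0.38, adjusted p = 0.0018) and 114 ± 8.4 CPM in DSg (log2 2.06 ± 0.37, adjusted p = 0.00484). Tensin-1 (Tns1), which binds the tail of beta integrins, rose in Spc against USg by a log2 fold change of 3.11 ± 0.44 (adjusted p = 0.00105).

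Of 14 other laminin-binding or integrin-associated membrane proteins, 2 fell and 0 rose in DSg against USg, 6 fell and 2 rose in Spc against USg, and 1 fell and 2 rose in Spc against DSg. The numbers that rose are near the shares of all genes. Cd9, a tetraspanin that associates with integrins, had 85.7 and 38 CPM in DSg and 278 and 269 CPM in USg (log2 -2.15 ± 0.41, adjusted p = 0.0374), and 38.4 and 30.9 CPM in Spc. Syndecan-4 (Sdc4), a co-receptor in focal adhesions, fell in DSg by 2.00 on the log2 scale (adjusted p = 0.0298). Cd44, the hyaluronan receptor, stood at 342 and 441 CPM in Spc and 44.4 and 6.59 CPM in USg (log2 3.99 ± 0.83, adjusted p = 0.00646).

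Of 20 basement membrane and matrix ligands, 1 rose and 1 fell in DSg against USg, 11 rose and 3 fell in Spc against USg, and 9 rose and 3 fell in Spc against DSg. The 3 that fell are near the shares of all genes. Col4a1, a chain of collagen IV, fell in DSg, at 31.1 ± 5.14 CPM, against USg, at 146 ± 6.36 CPM (log2 -2.23 ± 0.30, adjusted p = 0.0123), and rose in Spc, at 624 ± 39.7 CPM, against DSg (log2 4.32 ± 0.33, adjusted p = 0.0002). Thbs1, the matrix protein thrombospondin-1, rose in DSg against USg (log2 1.80 ± 0.37, adjusted p = 0.0437) and in Spc against USg (log2 5.12 ± 0.41, adjusted p = 0.000135). Of 19 genes of dystroglycan glycosylation and its complex, 1 rose in DSg against USg and 0 fell, 5 rose and 3 fell in Spc against USg, and 3 rose and 3 fell in Spc against DSg. The 3 that fell against USg, and both counts against DSg, are near the shares of all genes. Dystrophin (Dmd), which ties dystroglycan to actin, was the gene that rose in DSg, at 10.9 ± 0.569 CPM against 2.21 ± 0.398 CPM in USg (log2 2.26 ± 0.48, adjusted p = 0.0471). Pomt1, which starts the sugar chain on dystroglycan, rose in Spc, at 187 CPM in both libraries, against 19.3 and 31.3 CPM in USg (log2 2.87 ± 0.36, adjusted p = 0.00065). Large, which extends that chain, fell in Spc, with 9.66 and 10 CPM, against 39 and 51.3 CPM in USg (log2 -2.20 ± 0.35, adjusted p = 0.00199).

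Markers of somatic testis cells also differed between Spc and the line, beside the integrins and matrix genes above. Of 7 tested Sertoli cell genes, 4 rose and 0 fell in Spc against USg, and all markers of the list summed to 324 to 369 CPM in Spc and 91 to 122 CPM in USg. Of 6 peritubular myoid genes, 5 rose, with 473 to 500 CPM in Spc and 52.9 to 83.9 CPM in USg. Of the 4 fibroblast genes, 2 rose and 1 fell, as given above. Of 5 macrophage and leukocyte genes, 4 rose, with 67.6 to 86.9 CPM in Spc and 9.97 to 15.8 CPM in USg. Of the 7 leukocyte integrin chains, Itgae rose and Itgb2 and Itgal fell, with a median log2 fold change of 0.35. Of 3 Leydig cell genes, Star rose alone, with sums of 163 to 174 CPM in Spc and 5.4 to 5.52 CPM in USg. Star by itself stood at 159 and 169 CPM in Spc, so it made up most of those sums. Of 6 endothelial genes, Pecam1, Kdr and Vwf fell, Cdh5 rose, and Tek and Egfl7 were not called, with sums of 40.6 to 50.3 CPM in Spc and 165 to 218 CPM in USg.

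In Spc against DSg, 5 Sertoli, 5 myoid, 2 fibroblast and 2 macrophage genes rose, 1 Leydig gene rose and 1 fell, and 2 endothelial genes fell. The DSg sums were 31.9 to 46 CPM for Sertoli, 53.3 to 57.6 for myoid, 161 to 236 for fibroblast, 8.08 to 36.1 for macrophage, 9.7 to 21.3 for Leydig and 73.1 to 96.4 for endothelial genes. In DSg against USg, 0 genes of these 6 somatic lists were called in either direction, where 0.565% of all genes rose and 1.92% fell. With shares that low, the absence of calls does not show equal levels. Of the 39 markers of these lists, 0 were at 0 in both Spc libraries and 1, Insl3 of Leydig cells, was at 0 in both USg libraries. The part of these somatic markers in the Spc values of Itga5, Itgb8, Itga1, Lama4, Lamc1 and Dag1 was not tested.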

How the data were processed

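The authors deposited raw read counts per gene symbol without normalization: the 6 RNA columns hold whole numbers and sum to different totals. Per the submitters' processing notes, STAR 2.5.3a, featureCounts, Subread 1.4.6 and edgeR 3.2.4 are among the tools, and the builds are rn6 and rn5. Which of them made these counts, and with which annotation and strand setting, is not given in the sources used here, so similar or overlapping genes may share reads. The 2 samples of Foxa2 immunoprecipitation were not analysed here.

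Genes were kept with filterByExpr (minimum count 10, minimum total count 15) and scaled with TMM factors. The test was edgeR 4.0.16 (R 4.3.3, with limma 3.58.1), by its quasi-likelihood F-test with all 6 libraries fitted together, which leaves 3 residual degrees of freedom. P-values were two-sided and adjusted by Benjamini-Hochberg over 12210 genes, and a gene is called below 0.05. Levels are TMM-scaled CPM as mean ± SD over 2 libraries, and log2 fold changes have their SE or a 95% interval. Levels are not compared between genes, since no transcript lengths were used. Gene numbers and chromosomes are those of the RefSeq gene table of GRCr8. The fit was tested on simulated data.

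The genes given one by one were Itga6, Itga7, Itgb1, Itgb4 and Dag1 whatever their result, every called gene whose higher group averaged 5 CPM or more, and the laminin and nidogen genes that passed the filter. Counts of genes cover all members, but 1 of them is not reported here by itself. For 13 other gene lists, all counts and up to 4 called genes per comparison are given. Itga4, Itga10, Itga11, Itgad, Itgam, Itgb3, Itgb7, Itgbl1 and, in Spc against USg, Large were added after their values were seen. The members and lists were chosen with earlier results of these data known. The alternatives changed the scaling (RLE, upper quartile, total count), the filter (none, or 5 CPM), the tool (DESeq2 1.42.0, limma-voom) and the libraries (the 4 compared, each left out in turn), added a replicate block, or dropped ribosomal RNA genes. Leaving out USg 1 and DSg 1 together was added after seeing the data.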

Additional observations from a re-analysis of the deposited data

How the results depend on the processing

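Of 25 calls over the 3 comparisons, 8 were kept under all 17 alternatives, 17 were lost under at least 1, and 0 changed sign. The count of 2 lower genes in DSg against USg became 1 under upper quartile scaling, 1 under total count scaling, 1 with a filter of 5 CPM, 0 in a fit of the 4 libraries compared, 3 with ribosomal RNA genes left out, 4 with limma-voom, and 7 with DESeq2 or with no filter, where 1 gene was higher. It ran between 0 and 7 lower and 0 and 1 higher with 1 library left out. With the replicate number as a block the count of lower genes was 6, but the labels do not say whether equal numbers share a batch. The replicate differences correlated by 0.25 between USg and DSg, -0.27 between USg and Spc and 0.01 between DSg and Spc. USg 1 and DSg 1 also had the highest shares of ribosomal RNA genes, 7.81% and 12.4%. Whether these libraries share a batch was not tested. For Spc against USg, the 5 higher genes became 3 under total count scaling, 8 with no filter and 8 in the fit of the 4 libraries compared, and 2 to 8 with 1 library left out, while the 9 lower genes ran between 4 and 11. For Spc against DSg, the 5 higher genes became 3 under upper quartile and 2 under total count scaling, and 2 to 6 with 1 library left out, and the 4 lower genes ran between 1 and 5. With USg 1 and DSg 1 left out together, chosen after seeing the data, 13 of the 31 genes were higher and 10 lower in DSg against USg, against 21.3% and 23.8% of all genes, 11 higher and 13 lower in Spc against USg, against 29.1% and 29.7%, and 8 higher and 13 lower in Spc against DSg, against 29.3% and 29.8%. Values that changed sign were all uncalled in the fit reported above, and they came from many genes, of which only some follow. Itga7 in Spc over DSg changed sign under 7 of the 17 alternatives (log2 -0.7 to 2.02). Lama4 in DSg over USg did so under 5 of 17 (-0.76 to 1.4). With 1 library left out, Itgb1 in DSg over USg ran between -0.41 (without DSg 1) and 0.89, and was -0.29 without USg 2. Itgb1 in Spc over DSg ran between -0.07 (without DSg 2) and 0.96. Dag1 in Spc over USg ran between -0.58 and 0.25 (without USg 2). Itga6 in Spc over DSg ran between -0.43 and 0.07 (without DSg 1), and leaving out USg 1 and DSg 1 together gave 0.01. The median log2 fold change of all genes was 0.15 and 0.16 under upper quartile and total count scaling for DSg over USg, -0.25 and -0.22 for Spc over DSg, and -0.15 and 0.12 with no filter, against 0.01 and -0.03. The cause of these changes was not tested. Fits without a library leave its group with 1 library, assumed to vary like the others. Depth limits Itgb8, Itga1, Itga10, Itga11, Itgad, Itgam, Itgbl1 and Lamb3, with at most 11 counts in either USg library.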
